A study of Mus musculus with 6 samples.

Results

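The G protein-coupled receptors measured in 2 mouse kidney cell lines were taken as the genes of the deposited table whose symbol begins with Adgr, Gpr and a digit, Gprc5, S1pr, Lpar, P2ry, Ptger, Ptgir, Ednr, F2r, Adora, Adrb, Adra, Agtr, Bdkrb, Htr and a digit, Ackr, Cxcr, Mc1r, Oxtr or Calcrl. That choice used symbols only and gave 60 of the 12803 listed genes. Of these, 52 encode receptors. The other 8 carry a matching symbol but are not established as G protein-coupled receptors: Agtrap, Gpr89, Gpr107, Gpr108, Gpr137, Gpr137b, Gpr137c and Gpr180. No gene beginning with Ptgir, Ednr, Cxcr, Mc1r or Oxtr was among the listed genes.

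RNA was sequenced from 3 libraries of a podocyte-derived Myosin 1e knockout line (KO) and from 3 libraries of the Mundel mouse podocyte line, given as wild type (WT). Podocytes are cells of the kidney filter whose foot processes cover the capillaries of the glomerulus, and Myosin 1e is an actin motor that binds membranes. The labels give kidney as the tissue and name no treatment, time point or age for either group. The design also names a heterozygous genotype, but no sample carries that label. Each genotype is 1 cell line, so the effect of the deletion and other differences between the lines cannot be told apart. Replicates are called biological in the design text, with no word on separate cultures, and p-values therefore cover only the spread between these samples, which may be technical.

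G protein-coupled receptors cross the plasma membrane several times and pass an outside signal to a heterotrimeric G protein inside the cell, whose alpha subunit sets the pathway. Gs raises cyclic AMP through adenylyl cyclase, Gi lowers it, Gq activates phospholipase C and calcium release, and other alpha subunits act on the actin cytoskeleton through guanine nucleotide exchange factors. Kinases and arrestins then silence the receptor, while RGS proteins speed the return of the G protein to rest. In podocytes such receptors are known as inputs to calcium and the actin cytoskeleton, for example through angiotensin, prostaglandin, nucleotide and lysophospholipid ligands.

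The listed genes held 35447096 to 42106461 reads per library. Levels below are CPM (counts-per-million) of those reads, and 3 reads correspond to 0.0703 to 0.0856 CPM. Myo1e itself was at 18.9, 16.3 and 16.8 CPM in KO libraries 1 to 3 and at 184, 180 and 168 CPM in WT libraries 1 to 3 (log2 fold change -3.35, SE 0.09; exact two-sided permutation p = 0.1, the smallest that 3 libraries against 3 allow). The labels do not say which part of the gene was deleted. Of 12 podocyte markers, 8 were among the listed genes, and Nphs1, Ptpro and Tcf21 were among those not listed. Their sum was 1776 to 1998 CPM in KO and 2690 to 3024 CPM in WT libraries, with 2 risen and 4 fallen. All 8 markers of simple and ductal epithelium rose, from a sum of 1.06 to 1.19 CPM in WT to 6841 to 7327 CPM in KO. The sum of the 3 listed of 5 proximal tubule markers was 14.1 to 24.1 CPM in KO and 620 to 1247 CPM in WT. Of these 3, 2 fell and Cubn did not pass, at a mean of 3.41 CPM in KO and 3.48 CPM in WT. For the 4 listed of 9 mesangial, pericyte and fibroblast markers the sum was 5.16 to 7.28 in KO, 97.9 to 144 CPM in WT. Most of that WT sum was Pdgfrb, at a mean of 114 CPM in WT and 0.192 CPM in KO. Pdgfrb and Col1a1 fell, Dcn did not pass and Rgs5 rose. Endothelial Flt1, the only listed marker of 8 for that cell type, was at 1.75 to 2.29 CPM in KO and 4.52 to 14.7 CPM in WT, and none of the 3 listed leukocyte markers (of 8) passed with all libraries, although Cd74 did without KO replicate 3 (0.0258) and Csf1r without WT replicate 3 (0.0138). The marker differences separate the same lines as the receptor differences given below, and their part in the receptor results was not tested. In bulk RNA, fewer cells of a type and less RNA per cell cannot be told apart.

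Most single receptor genes differed between the lines, while their summed level did not separate them. Summed over the 60 genes, the level was 4602 ± 240 CPM in KO and 4395 ± 91.9 CPM in WT (SD, n = 3), and the ranges of the libraries overlapped. Of the 58 genes tested with limma, 27 rose and 23 fell in the KO line at a Benjamini-Hochberg adjusted p under 0.05, and 8 did not pass. Over all 12616 genes tested, 34.3% rose and 33.8% fell, 68.1% in all. The KO and WT libraries did not overlap for 50 of the 58, beside 73.5% of all genes tested. A change of at least 2-fold that also passed was found for 17 risen and 16 fallen receptor genes, against 11.7% and 16.2% of all genes tested. The median log2 fold change of the 58 was 0.13, beside 0.01 for all genes tested. Their median absolute log2 fold change was 1.32, beside 0.51.

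A gene entered the test with more than 0 log2 CPM, that is more than about 1 CPM, in at least 3 of the 6 libraries. Of the 60, 38 were above that level in all 6 libraries, 9 only in the KO line, 6 only in the WT line and 5 in part of the libraries of both lines. The genes that entered through 1 line had to differ, so the counts above do not by themselves show that receptors changed more than other genes. Among the 38 read in both lines, 16 rose and 14 fell, beside 33.2% and 31.5% of the genes of that kind, 64.7% in all. At least 2-fold changes were found for 13 of these 38, 6 risen and 7 fallen, where 19% of such genes had one, 7.4% risen and 11.6% fallen. The lines did not overlap for 30 of the 38, beside 70.8%. Their median absolute log2 fold change was 0.63, beside 0.43. The pair that was not tested had a low level in both lines. Adrb3, a Gs-coupled beta-adrenergic receptor, had 0.914 ± 0.405 CPM in KO and 0.217 ± 0.0725 CPM in WT (SD, n = 3). Calcrl, which forms the receptors for adrenomedullin and CGRP together with a RAMP protein, had 0.133 ± 0.0314 CPM in KO and 1.12 ± 0.187 CPM in WT (SD, n = 3).

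**Figure D1:**
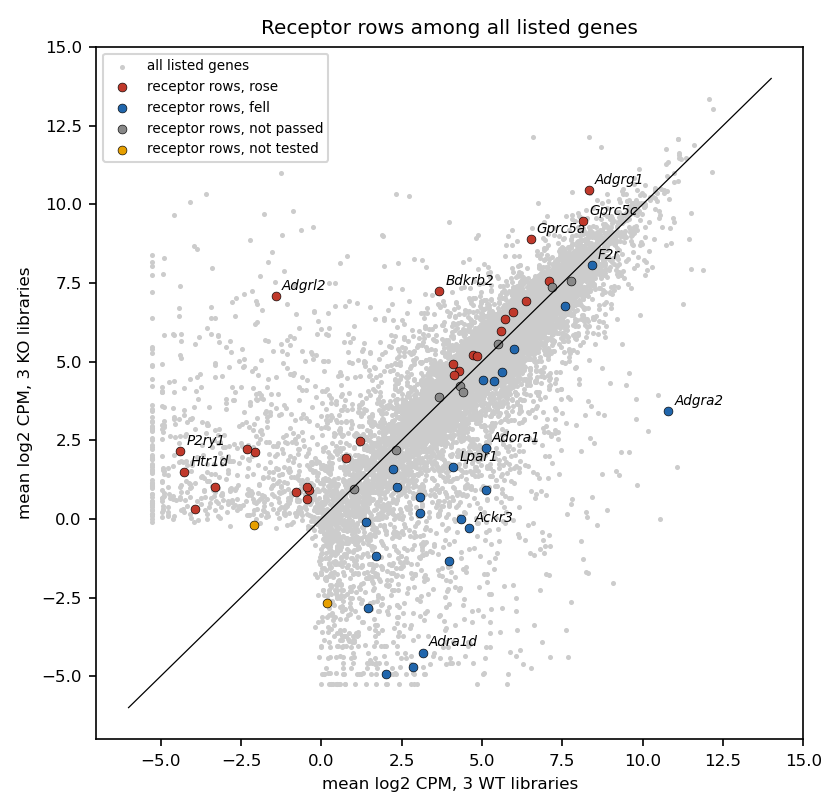
Mean deposited log2 CPM of the 3 KO libraries (vertical axis) against that of the 3 WT libraries (horizontal axis) for all 12803 listed genes (grey) and the 60 receptor genes (coloured by the limma call; the line marks equal levels). Adgrl2 and Adgra2 lie farthest from the line among the abundant receptors, and F2r lies close to it.

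**Figure D2:**
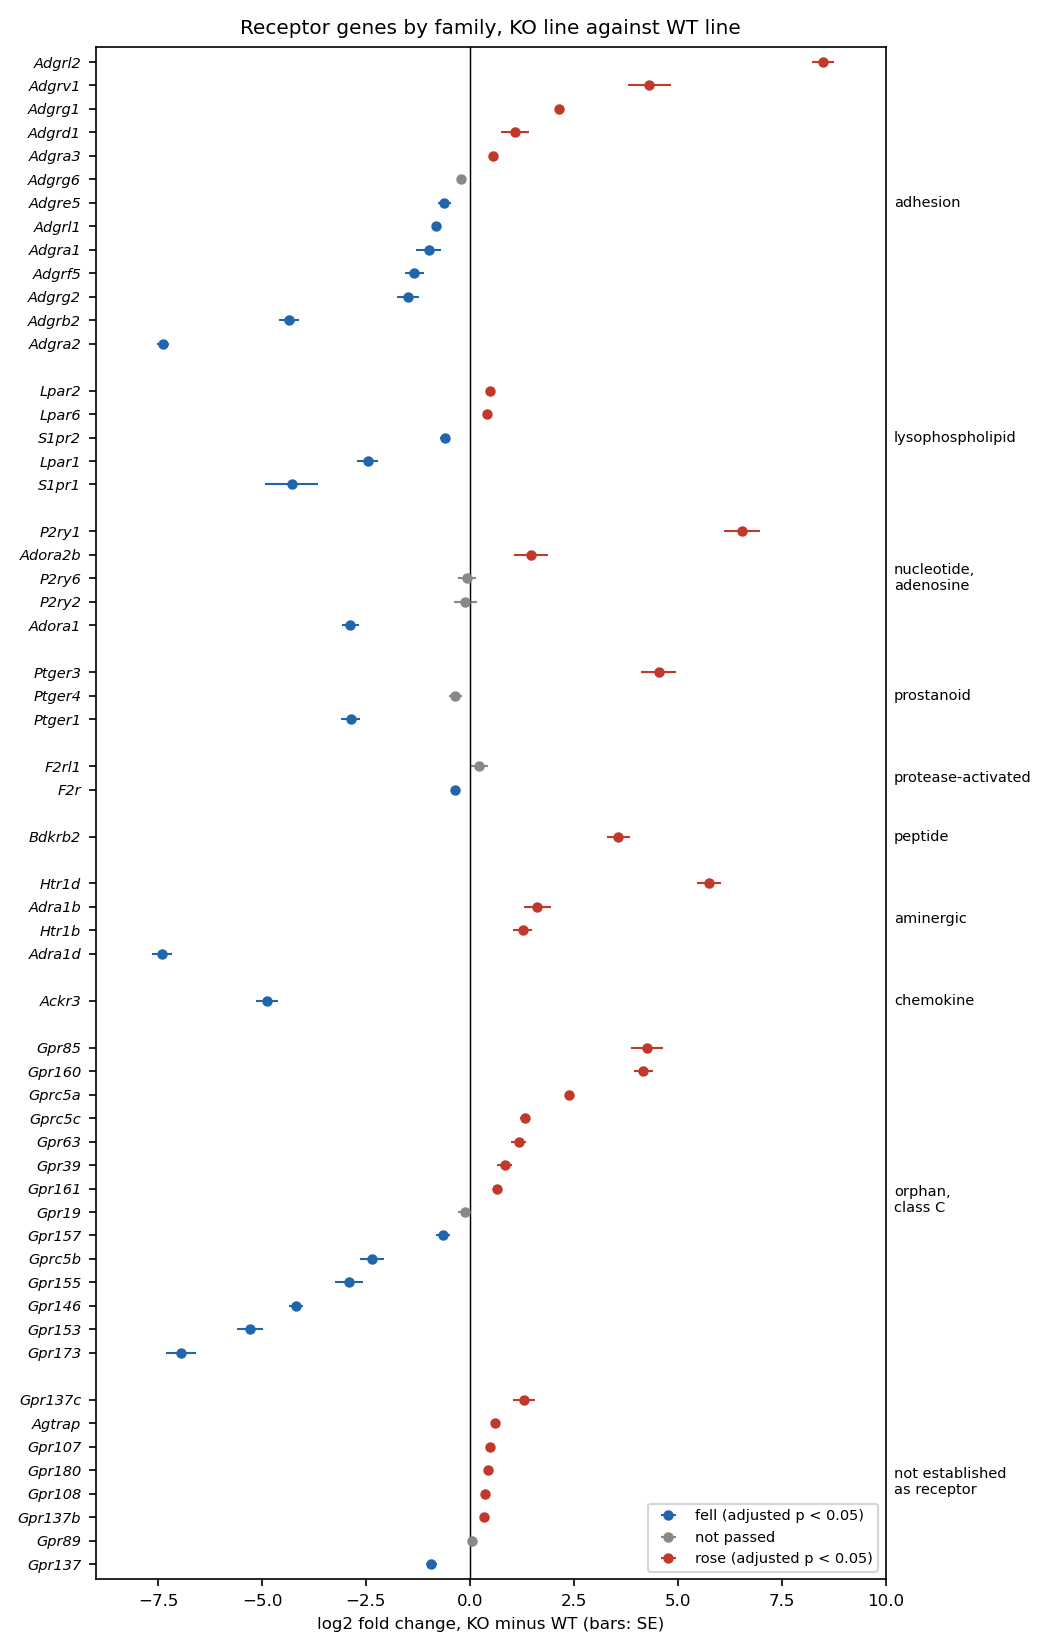
Log2 fold change, KO minus WT, of 56 of the 58 tested genes (horizontal axis) with its standard error, grouped by ligand class or family, in colour where the adjusted p was under 0.05. Risen and fallen genes stand side by side in most families, and the 8 genes that are not established as receptors lie between -0.92 and 1.31.

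Levels between genes were compared per kilobase of exon. In the KO line the order was led by Adgrg1 at 259 ± 20.01 CPM per kb, Gprc5a at 228 ± 5.02, Gprc5c at 135 ± 16.6, F2r at 80.2 ± 2.01 and F2rl1 at 61.8 ± 15.4 CPM per kb (SD, n = 3). Adgrg1 and Gprc5a differed by less than 2 SD of the wider spread, and so did F2r and F2rl1. In the WT line Adgra2 stood first at 309 ± 15.6 CPM per kb, followed by F2r at 103 ± 13.3 (SD, n = 3). Adgrg1 at 58.9 ± 2.73, Gprc5c at 53.7 ± 5.27, F2rl1 at 53.5 ± 13.1 and Gprc5a at 43.8 ± 2.48 CPM per kb came next (SD, n = 3), and each of these differed from the next by less than 2 SD of the wider spread. Adgra2, first in WT, was at 1.88 CPM per kb in KO. Adgrg1, F2r, F2rl1, Gprc5a and Gprc5c were among the 6 highest in each line.

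**Figure D3:**
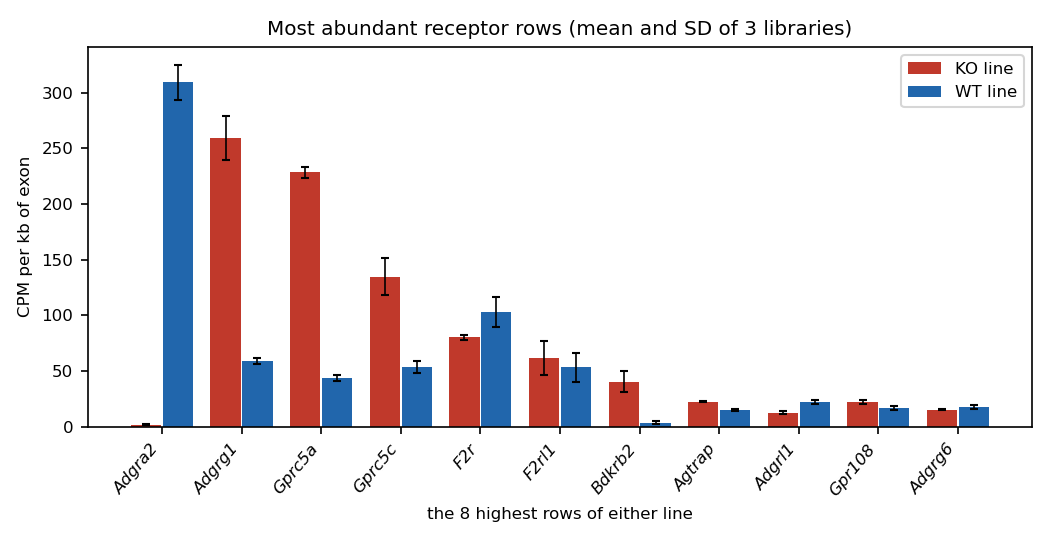
Level per kilobase of exon (vertical axis, CPM per kb) of the genes that are among the 8 highest in either line, with bars for the mean and error bars for the SD of 3 libraries. Adgrg1 and Gprc5a are highest in KO, and Adgra2 is highest in WT.

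Promoter sequences are shown for 6 receptors that differed by more than 4-fold, 4 risen and 2 fallen, so that the letters around their starts can be read. These 6 were chosen after their values were seen, so they do not show how risen and fallen receptors differ. Adora1 and Gpr146, which fell 7.43-fold and 18.4-fold, hold the E-box described next and were not printed. The sequences are the 250 bases before a RefSeq start (GRCm38.p6, mouse), 5′ to 3′ on the strand of the gene, in lower case. Capitals mark an E-box of the form CACCTG or its reverse complement CAGGTG, the letters bound by Snail and Zeb type repressors. Adgrl2 (chr3:148954636-148954885, minus strand) and Adgrg1 (chr8:94976859-94977108, plus strand, the one of 2 windows of that gene with the motif) are windows inside the gene as GENCODE M21 draws it. The others are Adgrv1 (chr13:81633145-81633394, minus strand), Gpr160 (chr3:30855700-30855949, plus strand), Ackr3 (chr1:90203730-90203979, plus strand) and Adgrb2 (chr4:129984620-129984869, plus strand).
Adgrl2, risen: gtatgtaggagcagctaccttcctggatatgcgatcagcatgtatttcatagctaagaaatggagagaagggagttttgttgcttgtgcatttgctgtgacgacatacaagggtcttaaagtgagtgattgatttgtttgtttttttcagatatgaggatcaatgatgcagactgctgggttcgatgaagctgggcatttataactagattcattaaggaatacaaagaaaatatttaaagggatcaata
Adgrg1, risen: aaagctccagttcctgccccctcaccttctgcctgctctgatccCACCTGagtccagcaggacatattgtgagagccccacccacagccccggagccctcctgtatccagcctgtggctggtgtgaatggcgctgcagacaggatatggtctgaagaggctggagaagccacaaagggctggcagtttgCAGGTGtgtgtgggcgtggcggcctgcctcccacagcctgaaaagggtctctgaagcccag
Adgrv1, risen: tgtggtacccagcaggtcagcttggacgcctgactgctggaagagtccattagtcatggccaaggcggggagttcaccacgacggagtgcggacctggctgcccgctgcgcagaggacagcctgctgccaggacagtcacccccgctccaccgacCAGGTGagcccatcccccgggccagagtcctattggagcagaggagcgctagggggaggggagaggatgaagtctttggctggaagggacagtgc
Gpr160, risen: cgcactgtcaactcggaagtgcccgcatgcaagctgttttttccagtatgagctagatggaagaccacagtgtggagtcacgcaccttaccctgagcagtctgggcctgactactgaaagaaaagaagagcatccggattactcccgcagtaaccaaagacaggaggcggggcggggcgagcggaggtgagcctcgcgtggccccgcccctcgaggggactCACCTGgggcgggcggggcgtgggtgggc
Ackr3, fallen: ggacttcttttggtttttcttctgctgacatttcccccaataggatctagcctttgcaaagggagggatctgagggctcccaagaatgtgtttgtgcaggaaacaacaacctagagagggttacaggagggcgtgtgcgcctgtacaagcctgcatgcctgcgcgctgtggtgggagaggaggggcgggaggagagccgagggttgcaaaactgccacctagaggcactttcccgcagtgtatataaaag
Adgrb2, fallen: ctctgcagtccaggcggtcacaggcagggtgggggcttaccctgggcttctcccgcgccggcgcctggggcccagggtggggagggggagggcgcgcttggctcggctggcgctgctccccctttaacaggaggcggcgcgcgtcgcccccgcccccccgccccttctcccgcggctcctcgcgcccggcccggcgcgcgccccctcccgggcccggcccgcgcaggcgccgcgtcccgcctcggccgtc

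The window of Adgrg1 held an E-box beginning 206 bases and another beginning 61 bases before the start, that of Adgrv1 one at 95 bases and that of Gpr160 one at 29 bases. Those of Adgrl2, Ackr3 and Adgrb2 held none, which says only that these letters are not in these windows. RefSeq windows were matched for 46 of the 60 genes, 66 windows in all. Searched on both strands, the E-box was in a window of 16 of the 46 genes (34.8%), beside 5252 of 27025 genes (19.4%) with a window in the whole RefSeq table. By response, 7 of 14 genes that rose at least 2-fold held it (50%), among them Ptger3 and Htr1d. So did 2 of 11 that fell at least 2-fold (18.2%), Adora1 and Gpr146, and 7 of the 21 others (33.3%). For the risen Ptger3 and Gpr63, the start behind the window that held it was not found in a GENCODE transcript of the gene. The same was true of P2ry2 and S1pr2 among the others. A gene counted if any of its windows held the motif, and all 27025 genes had 32851 windows. The 66 windows of the receptor genes had a median of 14 CpG per window and 62% GC, beside 6 and 52.4% for all windows. In windows of genes that rose at least 2-fold the medians were 7 CpG and 60.8% GC. They were 15.5 CpG and 63.4% GC for genes that fell at least 2-fold, and 15 CpG and 62.8% GC for the others. The part of this difference in the E-box shares was not tested. The AP-1 site TGANTCA, searched in the same way, was found for 13% of the receptor genes and 7.82% of all genes. The cyclic AMP response element TGACGTCA was found for S1pr2 alone among the receptor genes (2.17%), beside 1.77% of all genes. A match of letters is a description of the window and not a site shown to be bound.

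Adhesion receptors, which carry long extracellular domains that bind matrix or neighbouring cells, were a family of 13 genes, all tested. Of these 5 rose, 7 fell and 1 did not pass. The median log2 fold change was -0.61, beside 0.01 for all genes tested. The counts of this and the following families stand beside 34.3% risen and 33.8% fallen over all genes tested. Adgrl2, or latrophilin 2, a receptor for teneurins and FLRT proteins (chr3:148815583-148990555, minus strand, GRCm38), was at 134, 153 and 120 CPM in the KO libraries and at 0.211, 0.44 and 0.452 CPM in the WT libraries. It was high in every KO library and close to the limit of counting in every WT library, 369-fold apart in the means (log2 fold change 8.49, SE 0.27, adjusted p = 5.0e-08). Adgra2, known as GPR124 and as a co-activator of Wnt7 signals in brain endothelium (chr8:27085583-27123436, plus strand), was at 10.02, 13.5 and 9.05 CPM in KO and at 1695, 1874 and 1790 CPM in WT. The KO level was 0.607% of the WT level (log2 fold change -7.38, SE 0.14, adjusted p = 4.4e-09), and no library of one line came near the other.

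Adgrg1, known as GPR56, a receptor for collagen III (chr8:94974751-95014217, plus strand), was abundant in both lines. It had 1331, 1530 and 1357 CPM in KO and 303, 332 and 323 CPM in WT, 4.40-fold higher in KO without overlap (log2 fold change 2.14, SE 0.09, adjusted p = 2.9e-07). Adgrb2, a brain-enriched receptor of the BAI group, was at 1.3, 1.08 and 0.663 CPM in KO and at 21.4, 22.0 and 18.3 CPM in WT. It was near 1 CPM in all KO libraries (log2 fold change -4.35, SE 0.25, adjusted p = 1.2e-06). Adgrf5, known for the control of lung surfactant, was at 2.56, 2.00 and 1.51 CPM in KO and at 4.40, 5.77 and 5.03 CPM in WT (log2 fold change -1.34, SE 0.23, adjusted p = 0.00085). Its libraries did not overlap between the lines, but the difference was far smaller than for Adgra2 or Adgrb2.

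The other adhesion receptors changed by less or were low. Adgrl1, the latrophilin that shares ligands with Adgrl2, had 109 ± 11.4 CPM in KO and 192 ± 14.3 CPM in WT (SD, n = 3; log2 fold change -0.82, adjusted p = 0.00011). The 2 latrophilins moved in opposite directions. Adgra3, a relative of Adgra2, was higher in KO at 122 ± 8.40 against 83.1 ± 6.30 CPM (SD, n = 3; log2 fold change 0.56). The third of that group, Adgra1, had 21.2 ± 4.05 CPM in KO and 45.2 ± 23.1 CPM in WT (SD, n = 3), with WT replicate 1 at 71.7 CPM well above the other WT libraries. Its log2 fold change of -0.99 passed (adjusted p = 0.019), but not without KO replicate 2 (0.0659) or KO replicate 3 (0.0617), in a range of 0.00301 to 0.0659 over the alternatives.

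Adgre5, or CD97, which binds CD55, had 42.3 ± 7.03 CPM in KO and 64.5 ± 10.1 CPM in WT (SD, n = 3; log2 fold change -0.61). Adgrg2, known from the male efferent ducts, was low at 0.95 ± 0.323 CPM in KO and 2.61 ± 0.0934 CPM in WT (SD, n = 3; log2 fold change -1.49). Adgrv1, the very large receptor of hair cell stereocilia, was at 1.98 ± 0.251 CPM in KO and 0.0969 ± 0.0993 CPM in WT (SD, n = 3; log2 fold change 4.32). WT replicate 1 carried most of its WT reads, and without it the WT mean was 0.0400 CPM and the log2 fold change 4.94. Adgrd1 was at 1.54 ± 0.323 CPM in KO and 0.745 ± 0.331 CPM in WT (SD, n = 3; log2 fold change 1.08, adjusted p = 0.020). That call was lost without KO replicate 1 (0.0609), KO replicate 2 (0.0644), WT replicate 2 (0.0712) or WT replicate 3 (0.0573), in a range of 0.0033 to 0.0712 over the alternatives. Adgrg6, a receptor needed for Schwann cell myelination, was at 187 ± 8.68 CPM in KO and 217 ± 24.8 CPM in WT (SD, n = 3), a difference under the threshold (log2 fold change -0.21, adjusted p = 0.088, not passed). It passed without WT replicate 1 (0.0112), in a range of 0.0112 to 0.272 over the alternatives.

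**Figure D4:**
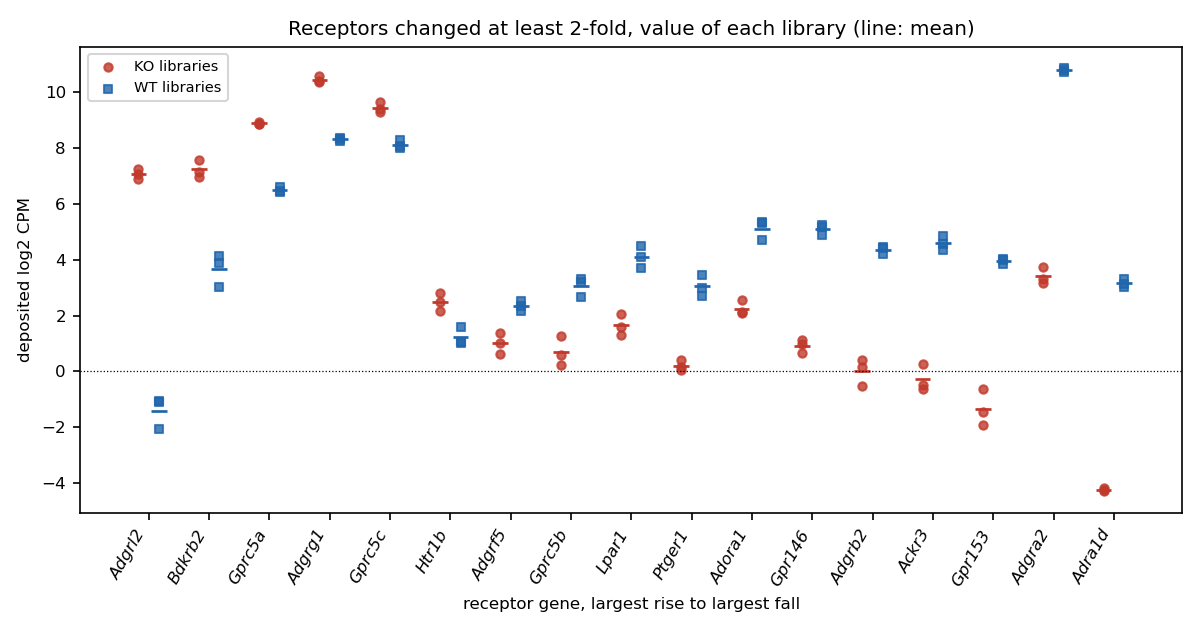
Deposited log2 CPM (vertical axis) of each library for 17 receptors that passed with a change of at least 2-fold and at least 5 CPM in the higher line, in order of fold change, with short lines for the means. The KO circles and WT squares do not overlap for any of the 17, and 6 of them are higher in KO.

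The lysophospholipid receptors, which sense sphingosine 1-phosphate and lysophosphatidic acid, split into 2 risen and 3 fallen of 5. Lpar1, the most widely studied lysophosphatidic acid receptor, was at 3.00, 4.14 and 2.41 CPM in KO and at 22.7, 17.1 and 13 CPM in WT. All KO libraries were below all WT libraries, 5.53-fold apart in the means (log2 fold change -2.46, SE 0.25, adjusted p = 4.5e-05). Lpar2 was higher in KO, at 37.4 ± 4.04 against 26.5 ± 1.57 CPM (SD, n = 3; log2 fold change 0.49), and so was Lpar6, at 25.9 ± 1.43 against 19.3 ± 0.550 CPM (SD, n = 3; log2 fold change 0.42). Lpar6 lies within the Rb1 gene on the opposite strand and overlaps 408 bases of its annotated exons. Rb1 itself fell, at 71.4 ± 9.32 CPM in KO and 106 ± 8.99 CPM in WT (SD, n = 3).

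S1pr1, the Gi-coupled receptor by which lymphocytes follow sphingosine 1-phosphate, was low in both lines, at 0.162 ± 0.164 CPM in KO and 2.79 ± 0.830 CPM in WT (SD, n = 3; log2 fold change -4.29, adjusted p = 0.0004). The KO mean was 0.0703 CPM without KO replicate 1 and 0.229 CPM without KO replicate 3, with log2 fold changes of -4.99 and -3.58. S1pr2, which couples to several G proteins, fell less, with 21.6 ± 3.02 CPM in KO and 32.4 ± 1.01 CPM in WT (SD, n = 3; log2 fold change -0.60). Genes that make, export or break down these lipids also differed. The sphingosine kinase Sphk1 was at 16.1 ± 3.14 CPM in KO and 1.83 ± 0.407 CPM in WT, and the exporter Spns2 at 1132 ± 118 and 387 ± 30.6 CPM (SD, n = 3), both higher in KO. The phosphatase Sgpp2, which acts on sphingosine 1-phosphate, was at 21.8 ± 3.52 CPM in KO and 0.0337 ± 0.0115 CPM in WT (SD, n = 3). Of the lipid phosphate phosphatases that degrade these ligands, Plpp2 rose to 125 ± 13.2 from 34.9 ± 2.43 CPM, while Plpp3 fell to 25.6 ± 4.54 from 177 ± 44.4 CPM and Plpp1 to 23.9 ± 2.47 from 41.3 ± 4.42 CPM (SD, n = 3).

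Of 5 receptors for nucleotides and adenosine, 2 rose, 1 fell and 2 did not pass. Adora1, the Gi-coupled adenosine A1 receptor, was at 4.21, 4.31 and 5.81 CPM in KO and at 26.0, 39.8 and 40.7 CPM in WT. Every KO library was below every WT library, 7.43-fold apart in the means (log2 fold change -2.87, SE 0.20, adjusted p = 4.8e-06). Adora2b, the Gs-coupled low-affinity adenosine receptor, was low at 2.04 ± 0.503 CPM in KO and 0.774 ± 0.373 CPM in WT (SD, n = 3; log2 fold change 1.47, adjusted p = 0.011). P2ry1, the ADP receptor coupled to Gq, had 4.43 ± 0.343 CPM in KO (SD, n = 3) and 3 reads over the WT libraries, a depth-scaled ratio of KO to WT reads of 172 (counting interval 58.4 to 835). Without WT replicate 3 the WT mean of P2ry1 was 0.0117 CPM in place of 0.0267 CPM.

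P2ry2, the ATP and UTP receptor of epithelia, had 18.5 ± 0.0970 CPM in KO and 21.3 ± 9.07 CPM in WT (SD, n = 3; adjusted p = 0.75), with the WT libraries spread from 12.4 to 30.5 CPM. It passed without WT replicate 1 (log2 fold change -0.45, adjusted p = 0.0356) and had the other sign without WT replicate 3 (log2 fold change 0.20), while the adjusted p ran from 0.0356 to 0.95 over the alternatives. P2ry6, the UDP receptor that lies 21.9 kb from P2ry2, was at 1.89 ± 0.0436 CPM in KO and 2.01 ± 0.456 CPM in WT (SD, n = 3; adjusted p = 0.80). The ectonucleotidases that hydrolyse ATP and ADP were higher in KO: Entpd3, with 4.89 ± 0.536 CPM in KO (SD, n = 3) and 0 WT reads, at least 189-fold when 3 reads over the WT libraries are taken as the floor, and Entpd2, with 2.66 ± 0.541 against 0.389 ± 0.125 CPM (SD, n = 3). The nucleoside transporter Slc29a1 fell to 4.07 ± 0.524 CPM from 26.8 ± 2.14 CPM, and adenosine deaminase Ada rose to 7.85 ± 1.69 from 4.45 ± 0.379 CPM (SD, n = 3). Nt5e, the enzyme that makes adenosine from AMP, was at 3.72 ± 0.543 CPM in KO and 6.63 ± 2.43 CPM in WT (SD, n = 3; adjusted p = 0.025), a call lost without KO replicate 1 (0.0893), KO replicate 3 (0.0516) or WT replicate 1 (0.0551) and ranging from 0.0114 to 0.0924.

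The 3 listed prostanoid receptors are all receptors for prostaglandin E2 and went 3 ways. Ptger1, which couples to calcium, was at 1.3, 0.999 and 1.09 CPM in KO and at 11.1, 7.97 and 6.56 CPM in WT. The lines did not overlap (log2 fold change -2.86, SE 0.23, adjusted p = 9.6e-06), but most exon bases of Ptger1 overlap exons on the opposite strand. Ptger3, coupled to Gi, was at 4.69 ± 0.452 CPM in KO and 0.201 ± 0.125 CPM in WT (SD, n = 3; log2 fold change 4.54, adjusted p = 2.4e-05). Ptger4, coupled to Gs and the highest of the 3 per kilobase of exon in both lines, had 16.6 ± 2.84 CPM in KO and 21.1 ± 2.55 CPM in WT (SD, n = 3). It did not pass (adjusted p = 0.070), but did without KO replicate 2 (0.0426) or WT replicate 1 (0.0335), in a range of 0.0272 to 0.234 over the alternatives. Among the enzymes of prostaglandin E2 synthesis, the inducible cyclooxygenase Ptgs2 rose to 33.9 ± 1.57 from 10.6 ± 3.21 CPM and Ptges2 to 38 ± 3.78 from 15.5 ± 0.350 CPM (SD, n = 3). Ptges3 did not pass, at 65.1 ± 4.87 CPM in KO and 62.1 ± 3.68 CPM in WT (SD, n = 3; adjusted p = 0.52). The constitutive Ptgs1 was at 1.82 ± 0.477 CPM in KO and 4.23 ± 2.11 CPM in WT (SD, n = 3; adjusted p = 0.018), a call lost without KO replicate 1 (0.0552) or KO replicate 2 (0.0612) and ranging from 0.0115 to 0.0612.

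The protease-activated receptors F2r and F2rl1, neighbours 76.6 kb apart on chromosome 13, were abundant in both lines. F2r, the thrombin receptor PAR1, was at 263, 275 and 264 CPM in KO and at 390, 302 and 339 CPM in WT. It fell by 0.36 on the log2 scale (SE 0.10, adjusted p = 0.013), with every KO library below every WT library. F2rl1, or PAR2, which trypsin-like proteases cleave, was at 130, 214 and 164 CPM in KO and at 109, 151 and 180 CPM in WT. The libraries of the lines overlapped and for F2rl1 the test was not passed (log2 fold change 0.21, SE 0.22, adjusted p = 0.41). Membrane serine proteases that are known to act on PAR2 were far apart between the lines. St14, or matriptase, was at 626 ± 37.7 CPM in KO and 0.815 ± 0.0284 CPM in WT, and its partner Prss8 was at 49.8 ± 4.16 CPM in KO and 0.0862 ± 0.0314 CPM in WT (SD, n = 3).

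Bdkrb2, the Gq-coupled receptor for bradykinin (chr12:105563226-105595237, plus strand), was at 193, 142 and 126 CPM in KO and at 8.08, 14.7 and 17.4 CPM in WT. The lowest KO library was above the highest WT library by a wide margin, 11.5-fold in the means (log2 fold change 3.57, SE 0.27, adjusted p = 7.7e-06). Among the receptors chosen by symbol it was the only peptide receptor tested, since Calcrl was too low. Agtr genes of the angiotensin receptors were not among the listed genes apart from Agtrap, which encodes an adaptor. The precursor of angiotensin, Agt, was at 0.209 ± 0.0577 CPM in KO and 52.8 ± 14.7 CPM in WT (SD, n = 3).

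Of 5 tested receptors for amines, 3 rose, 1 fell and 1 did not pass. Adra1d, a Gq-coupled alpha-1 adrenergic receptor, had 1 read in each KO library and was at 8.81, 9.83 and 8.14 CPM in WT. Scaled to library depth, WT reads were 338 times the KO reads (interval 115 to 1642; adjusted p = 5.6e-08). Its relative Adra1b was the reverse, at 1.88 ± 0.710 CPM in KO and 0.556 ± 0.0168 CPM in WT (SD, n = 3; log2 fold change 1.62, adjusted p = 0.0024). Htr1b, a Gi-coupled serotonin receptor, was at 6.94, 4.51 and 5.52 CPM in KO and at 2.95, 2.04 and 2.01 CPM in WT. Its libraries did not overlap between the lines (log2 fold change 1.27, SE 0.23, adjusted p = 0.0012). Htr1d, a related serotonin receptor, had 2.77 ± 0.191 CPM in KO (SD, n = 3) and 3 reads over the WT libraries, a depth-scaled ratio of 108 with an interval of 36.7 to 527. Maoa, an enzyme that breaks down amines, was at 47.8 ± 5.96 CPM in KO and 62.8 ± 9.73 CPM in WT (SD, n = 3; adjusted p = 0.029), a call lost without KO replicate 1 (0.106) or WT replicate 3 (0.0842) and ranging from 0.0114 to 0.106.

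Ackr3, an atypical chemokine receptor that removes Cxcl12 and signals through arrestins rather than G proteins (chr1:90203980-90216751, plus strand), was the only chemokine receptor listed by the symbols used. It was at 0.615, 1.17 and 0.690 CPM in KO and at 28.8, 23.9 and 20.4 CPM in WT. The KO libraries were all near or below about 1 CPM, 29.5-fold lower in the means (log2 fold change -4.88, SE 0.26, adjusted p = 7.9e-07). The promoter window of Ackr3, printed above, held none of the 3 motifs searched. Its ligand Cxcl12 was at 0.0620 ± 0.0158 CPM in KO and 199 ± 34.6 CPM in WT (SD, n = 3), so both receptor and ligand were low in the KO line. The chemokine Cxcl10 was also lower in KO, at 6.71 ± 1.43 CPM against 167 ± 81.4 CPM (SD, n = 3).

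Orphan receptors, whose ligands are unknown or debated, and class C orphans made up 15 genes, of which 7 rose, 7 fell and 1 did not pass. The class C group Gprc5, whose first member is induced by retinoic acid, moved both ways. Gprc5a (chr6:135065651-135084709, plus strand) was at 488, 472 and 468 CPM in KO and at 87.3, 89.3 and 97.1 CPM in WT. Both lines were tight, 5.22-fold apart (log2 fold change 2.38, SE 0.07, adjusted p = 4.3e-08). Gprc5c was at 632, 803 and 687 CPM in KO and at 261, 271 and 313 CPM in WT, again without overlap (log2 fold change 1.33, SE 0.12, adjusted p = 1.6e-05). Gprc5b went the other way, at 1.16, 1.48 and 2.39 CPM in KO and at 10.02, 9.18 and 6.25 CPM in WT (log2 fold change -2.36, SE 0.29, adjusted p = 0.00014). Per kilobase of exon it was the lowest of the 3 in both lines.

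Gpr146, an orphan linked to liver cholesterol output, was at 1.94, 1.54 and 2.18 CPM in KO and at 29.7, 38.1 and 36.5 CPM in WT. The WT libraries were 18.4-fold higher in the means (log2 fold change -4.19, SE 0.17, adjusted p = 1.8e-07). Gpr153 was at 0.615, 0.342 and 0.239 CPM in KO and at 16.4, 16 and 14.4 CPM in WT, and stayed below 1 CPM in all KO libraries (log2 fold change -5.30, SE 0.31, adjusted p = 1.4e-06).

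The SREB group of brain orphans also split. Gpr173 had 3.97 ± 0.300 CPM in WT (SD, n = 3) and 1 KO read, in KO replicate 1, without which its KO level was 0. The depth-scaled ratio of reads was 453, with an interval of 80.8 to 17915. Gpr85 of the same group was at 1.22 ± 0.0716 CPM in KO and 0.0431 ± 0.0300 CPM in WT (SD, n = 3; log2 fold change 4.25), and at 0.0258 CPM in WT without WT replicate 2. Gpr160 was at 4.33 ± 0.637 CPM in KO and 0.215 ± 0.0102 CPM in WT (SD, n = 3; log2 fold change 4.17, adjusted p = 9.7e-07). Its window above holds an E-box close to the start.

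Further orphans that passed were Gpr63, at 3.84 ± 0.456 CPM in KO and 1.68 ± 0.156 CPM in WT, and Gpr155, a lysosomal membrane protein, at 0.433 ± 0.168 CPM in KO and 3.30 ± 0.739 CPM in WT (SD, n = 3). Gpr161, which restrains Hedgehog signalling at the primary cilium, had a higher level per kilobase and rose less, to 82.6 ± 2.84 from 52.4 ± 2.83 CPM (SD, n = 3; log2 fold change 0.66). Gpr39, which responds to zinc, rose to 30.4 ± 3.62 from 17.3 ± 3.96 CPM (SD, n = 3; log2 fold change 0.83, adjusted p = 0.0028). Gpr157 was at 2.98 ± 0.308 CPM in KO and 4.67 ± 0.486 CPM in WT (SD, n = 3; log2 fold change -0.65, adjusted p = 0.0083). After quantile normalisation Gpr157 did not pass (0.0682), in a range of 0.0032 to 0.0682 over the alternatives. Gpr19 did not pass, at 4.59 ± 0.605 CPM in KO and 4.99 ± 0.111 CPM in WT (SD, n = 3; adjusted p = 0.48), and its sign changed with quantile normalisation.

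The 8 genes with a matching symbol that are not established receptors changed by less than 2-fold, apart from Gpr137c. Of these 6 rose, 1 fell and 1 did not pass, with a median log2 fold change of 0.41. Gpr107, a Golgi protein, rose to 190 ± 12.9 from 135 ± 6.71 CPM and its relative Gpr108 to 62.5 ± 5.03 from 48.5 ± 4.72 CPM (SD, n = 3). Agtrap, which binds the angiotensin receptor, rose to 95.1 ± 1.27 from 62.8 ± 4.38 CPM, and Gpr180 to 23.9 ± 1.14 from 17.6 ± 0.978 CPM (SD, n = 3). The lysosomal Gpr137 family split: Gpr137 fell to 25.8 ± 2.95 from 49.2 ± 8.05 CPM, Gpr137b rose to 36.5 ± 0.443 from 28.9 ± 2.74 CPM and Gpr137c to 1.86 ± 0.0301 from 0.755 ± 0.208 CPM (SD, n = 3). Gpr89, a Golgi anion channel, did not pass, at 47.1 ± 1.55 CPM in KO and 45.3 ± 0.997 CPM in WT (SD, n = 3; adjusted p = 0.51). Without these 8, the median log2 fold change of the 50 remaining tested receptors was -0.12 and the median absolute one 1.55.

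Receptors for lysophospholipids, nucleotides, adenosine, prostanoids, proteases, peptides, amines and chemokines were grouped by the G protein they are best known to use. Ptger1 was assigned to no class. The adhesion, orphan and class C receptors were left out, also those with a known ligand. Each class with more than 1 called receptor held both risen and fallen ones. Of 3 tested Gs-coupled receptors 1 rose and 2 did not pass. Of 5 Gi-coupled receptors 3 rose and 2 fell, of 6 Gq-coupled ones 3 rose, 1 fell and 2 did not pass, and of 6 that use several 2 rose, 3 fell and 1 did not pass. The summed level of the Gq-coupled receptors was 180 ± 34.9 CPM in KO and 46.2 ± 14 CPM in WT, most of it Bdkrb2 in KO, and that of the Gi-coupled receptors was 18.1 ± 1.52 CPM in KO and 40.8 ± 6.74 CPM in WT, most of it Adora1 in WT (SD, n = 3).

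The proteins that act behind the receptors were examined as lists. Their counts, here and in the next paragraphs, stand beside 34.3% risen and 33.8% fallen over all genes tested. Of 12 tested G protein alpha subunits 5 rose, 4 fell and 3 did not pass. Gnaq, the alpha subunit of Gq, was at 153 ± 19.8 CPM in KO and 332 ± 13.1 CPM in WT (SD, n = 3; log2 fold change -1.13, adjusted p = 2.3e-05). Gnaq was lower in the line that had more Bdkrb2. Gna11, of the same class, did not pass, at 169 ± 14.8 CPM in KO and 176 ± 17.1 CPM in WT (SD, n = 3). Gna13, which acts on the actin cytoskeleton, fell to 86.1 ± 7.59 from 118 ± 3.11 CPM, and Gnaz, of the Gi class, rose to 9.50 ± 1.25 from 5.22 ± 1.64 CPM (SD, n = 3). The remaining called subunits, chosen after their values were seen, were low: Gnai1, Gna15 and Gnal rose and Gnao1 fell, all with less than 5 CPM in both lines, and Gnal (adjusted p = 0.049) lost its call without any 1 of the 6 libraries (up to 0.155). Gnas, the alpha subunit of Gs, was at 811 ± 48.3 CPM in KO and 670 ± 4.44 CPM in WT (SD, n = 3; log2 fold change 0.27, adjusted p = 0.024). That call was lost without KO replicate 1 (0.0814), WT replicate 2 (0.0786) or WT replicate 3 (0.0646) and ranged from 0.0168 to 0.0814. Gnai2 was at 506 ± 49.1 CPM in KO and 656 ± 77.7 CPM in WT (SD, n = 3; adjusted p = 0.020), lost without KO replicate 2 (0.0704) or WT replicate 1 (0.0586) and ranging from 0.0148 to 0.0704.

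Of 7 beta and gamma subunits 2 rose and 3 fell. Gnb4 fell to 2.05 ± 0.817 from 24.6 ± 1.31 CPM (log2 fold change -3.64), and Gnb5, which works with RGS proteins of the R7 type, rose to 43.7 ± 5.71 from 18.6 ± 3.06 CPM (SD, n = 3). Gng7 fell to 4.88 ± 0.454 from 10.5 ± 2.07 CPM and Gng12 to 246 ± 17.8 from 326 ± 17.4 CPM (SD, n = 3). Gnb1 was at 530 ± 9.33 CPM in KO and 450 ± 10.7 CPM in WT (SD, n = 3; adjusted p = 0.023), a call lost without KO replicate 1 (0.0728), WT replicate 2 (0.0854) or WT replicate 3 (0.0714) and ranging from 0.0197 to 0.0854.

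RGS proteins, which end G protein signals, split into 4 risen and 3 fallen of 9. Rgs11, a partner of Gnb5, had 8.65 ± 1.03 CPM in KO (SD, n = 3) and 1 WT read, a depth-scaled ratio of 1015 with an interval of 182 to 40137, and none without WT replicate 3. The others that rose or fell outside the named rule were Rgs5, at 2.39 ± 0.952 CPM in KO and 0.0907 ± 0.0938 CPM in WT, Rgs6, at 1.55 ± 0.681 and 0.0627 ± 0.0720 CPM, and Rgs2, at 0.187 ± 0.0634 and 3.07 ± 0.439 CPM (SD, n = 3). All 3 were chosen after their values were seen. The WT mean of Rgs5 was 0.0424 CPM without WT replicate 1, and that of Rgs6 0.0234 CPM without WT replicate 3. Rgs12 rose to 146 ± 23.9 from 72.0 ± 4.26 CPM, Rgs10 fell to 0.631 ± 0.281 from 17.7 ± 2.18 CPM and Rgs3 to 7.28 ± 0.891 from 23.2 ± 1.49 CPM (SD, n = 3). Of 6 receptor kinases and arrestins 1 rose and 3 fell. The arrestins moved in opposite directions, Arrb1 to 12 ± 1.43 from 63.5 ± 10.02 CPM (log2 fold change -2.40) and Arrb2 to 20.7 ± 0.994 from 13.9 ± 0.880 CPM (log2 fold change 0.57; SD, n = 3). The receptor kinase Grk5 fell to 21 ± 0.525 from 88.4 ± 8.20 CPM (log2 fold change -2.07; SD, n = 3). Grk4 was at 3.64 ± 0.245 CPM in KO and 5.44 ± 0.411 CPM in WT (SD, n = 3; adjusted p = 0.0082) and did not pass after quantile normalisation (0.0840), in a range of 0.00206 to 0.0840.

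On the cyclic AMP side, 1 of 5 adenylyl cyclases rose and 3 fell. Adcy1, the calcium-stimulated cyclase, rose to 39.7 ± 5.37 from 3.01 ± 1.12 CPM (log2 fold change 3.78), while Adcy3 fell to 0.0866 ± 0.0606 from 5.17 ± 1.04 CPM and Adcy6 to 148 ± 2.75 from 248 ± 22.7 CPM (SD, n = 3). The KO mean of Adcy3 was 0.0561 CPM without KO replicate 1. Adcy9 was at 9.07 ± 2.40 CPM in KO and 16.6 ± 4.64 CPM in WT (SD, n = 3; adjusted p = 0.013), with 0.0501 without KO replicate 3 and a range of 0.000916 to 0.0501. Of 9 phosphodiesterases that degrade cyclic AMP 2 rose and 6 fell, and their median was -0.98 on the log2 scale beside 0.01 for all genes tested. Pde8a fell to 3.04 ± 0.137 from 63.7 ± 3.68 CPM, Pde4a to 3.00 ± 0.903 from 27.9 ± 0.728 CPM and Pde3b to 0.266 ± 0.0414 from 7.95 ± 3.13 CPM (SD, n = 3). Pde4d rose to 6.23 ± 0.928 from 0.606 ± 0.234 CPM and Pde7a to 197 ± 14.1 from 98.4 ± 13 CPM (SD, n = 3). The summed level of the 9 was 237 ± 16.8 CPM in KO and 243 ± 10.8 CPM in WT (SD, n = 3), and the ranges of the libraries overlapped.

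On the calcium side, 2 of 6 genes for phospholipase C beta and the IP3 receptors rose and 2 fell. Plcb1 fell to 8.25 ± 1.52 from 39.8 ± 5.76 CPM (log2 fold change -2.27; SD, n = 3). Plcb3, at a mean of 84.1 CPM in KO and 86.3 CPM in WT, and Plcb4, at 69.6 CPM in both, did not pass. Of the IP3-gated calcium channels, Itpr1 fell to 135 ± 11.1 from 244 ± 21.8 CPM, while Itpr2 rose to 122 ± 10.5 from 61.0 ± 11.1 CPM and Itpr3 to 183 ± 18.3 from 105 ± 13.3 CPM (SD, n = 3). Of the 3 RGS-box guanine nucleotide exchange factors 2 fell, Arhgef11 to 70.5 ± 7.06 from 115 ± 4.51 CPM and Arhgef12 to 291 ± 29.97 from 437 ± 28.1 CPM (SD, n = 3). The single RAMP tested, Ramp3, rose to 1.38 ± 0.325 from 0.0571 ± 0.0520 CPM (SD, n = 3), or from 0.0271 CPM without WT replicate 1. Ligands and the enzymes that make them counted 17 risen and 16 fallen of 37.

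Receptors with several membrane passes that the symbols above do not take in were listed for comparison. Of 23 tested 6 rose and 13 fell, beside 34.3% risen and 33.8% fallen over all genes tested. The median over the 23 was -0.91 on the log2 scale, beside 0.01 for all genes tested. Whether this list differs from other genes was not tested. Lgr6, a receptor for R-spondins, was at 33.5 ± 11.2 CPM in KO and 0.145 ± 0.0342 CPM in WT, Celsr1, a planar polarity cadherin of the adhesion class, at 119 ± 32.5 and 31.3 ± 5.47 CPM, and Mrgpre at 19.3 ± 6.15 and 3.47 ± 0.900 CPM (SD, n = 3). Npy2r, for neuropeptide Y, was lower in KO at 2.02 ± 0.619 against 31.7 ± 0.391 CPM, and so were the Wnt receptors Fzd3, at 3.98 ± 1.21 against 13.3 ± 0.947 CPM, and Fzd8, at 16.9 ± 1.95 against 50.9 ± 4.02 CPM (SD, n = 3).

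**Figure D5:**
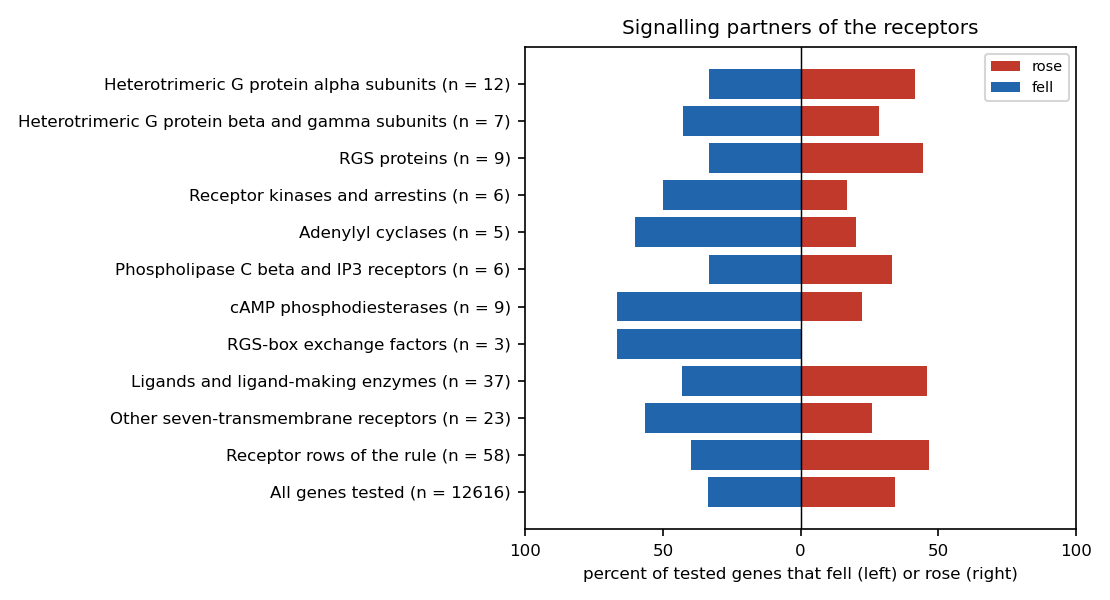
Percent of the tested genes of each list that fell (left) or rose (right) in the KO line at an adjusted p under 0.05, with the number tested in brackets. The lists hold 3 to 37 genes, and the last bar gives all 12616 genes tested, of which 34.3% rose and 33.8% fell.

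By position in GENCODE M21 (GRCm38), several receptor genes were neighbours. On chromosome 8, Adgrl1, Adgre5 and Ptger1 lie in 1 stretch, with gaps of 159 kb and 50.5 kb, and all 3 fell. Adgra2 lies 102 kb from Adrb3 on the same chromosome, and Gprc5a 167 kb from Gpr19 on chromosome 6, pairs in which 1 gene changed strongly and the other was not tested or did not pass. Many receptor genes have their coding sequence in a single block, 15 of the 60 (25%), beside 617 of 12086 listed protein-coding genes (5.11%). The others ranged up to Adgrv1 with 92 coding blocks over 24878 exon bases. Besides Lpar6, exons on the opposite strand overlap those of Ptger1, Adora1 (Mybph), Gpr39 (Lypd1), Adgre5 (Ddx39), Gprc5b (Iqck), Gpr137 (Bad), Htr1b and P2ry1. Such overlap also holds for Gpr89, Adgrl1, Ptger4, Adrb3, Adgrg6, Gpr107, Gpr155, Gpr19, Gpr63, Adgrl2, Gpr137c, Adra1d, Adgrg2, Gpr173 and Adgra2. The single overlaps there run from 73 bases (Adgra2) to 1333 bases (Gpr89). Reads of all these genes are likewise uncertain: whether the counting used the strand is not given in the sources used here. Of these neighbours, Ddx39 did not pass, at 83.7 ± 6.26 CPM in KO and 99.5 ± 20.9 CPM in WT, but did without WT replicate 1 (0.00701), Bad fell to 30.2 ± 4.01 from 47.0 ± 7.87 CPM like Gpr137, and Iqck rose to 1.90 ± 0.0716 from 1.02 ± 0.188 CPM, against the direction of Gprc5b (SD, n = 3).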

How the data were processed

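Gene expression was measured by RNA sequencing in 6 libraries, 3 per cell line. Per the labels' protocols, RNA came from an RNeasy Plus kit and 100 ng went into stranded Illumina mRNA libraries. Per the submitters' processing notes, the tools included STAR 2.7.3a, Trimmomatic 0.39, Subread 1.6.4 with featureCounts, and edgeR, on build GRCm38. Which annotation, strand setting, filter and prior the authors used is not given in the sources used here. The authors deposited 1 table of log2 CPM values.

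Above the lowest value of each column (-5.26), 100% of the values were whole multiples of 1 read within 0.001, so reads could be worked back. CPM in the text are these reads as counts-per-million with no prior added. Libraries held 35447096 to 42106461 reads over the listed genes. Counting error is not small for genes with few reads in 1 line. Examples are Gpr160 with 25, Ptger3 with 24 and Gpr85 with 5 reads over the WT libraries. Ratios of reads are scaled to the summed effective library size of each line, the one behind the deposited values, and their intervals are exact 95% binomial (Clopper-Pearson) intervals and cover counting error only. A fold against 0 reads was taken against 3 reads over the group.

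The test was limma 3.58.1 (R 4.3.3; lmFit, eBayes with an intensity trend) on the deposited log2 CPM, KO minus WT, without covariates. It covered the 12616 genes above 0 log2 CPM in at least 3 libraries, with Benjamini-Hochberg adjustment over all of them and a threshold of 0.05. It was tested on simulated data. A log2 fold change near 0 reads depends on the authors' prior, so ratios are given where a line held at most 3 reads in all. Slightly above that, as for Gpr85, the log2 fold change given keeps that dependence.

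The receptor genes, the companion lists and the rule for named genes were chosen with earlier results of these data known. Described with each library's value were receptors past the threshold with at least a 2-fold change and 5 CPM in the higher line. Also named were the 5 highest per kilobase in each line, little-changed genes (under 1.5-fold) with at least 10 CPM in both lines, genes of at least 10 CPM that did not pass, up to 3 risen and 3 fallen of each companion list, and the ligand genes paired with receptors. Alternatives were other filters, another pseudocount, median and quantile scaling, voom, no intensity trend, a replicate block and leaving out each library.

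Positions and exon lengths are from GENCODE M21 (GRCm38), which need not be the authors' annotation, and all 60 receptor symbols were found once. Promoter windows are from RefSeq (GRCm38.p6). For 45 of the 66 receptor windows the first 30 transcribed bases lay in a GENCODE transcript of the gene. Protein sequences were not used here. Some genes are not reported here.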

Additional observations from a re-analysis of the deposited data

How the results depend on the processing

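Over 14 alternative settings, 21 to 28 receptor genes rose, 22 to 26 fell and 26 to 35 passed with at least a 2-fold change, beside 27, 23 and 33 in the results above. The count of all genes passing the threshold was 7573 to 8743, beside 8590. Of the values for single receptor genes under these settings, 789 kept direction and call, 5 gained a call, 7 lost one and 4 changed sign. Those 4 were P2ry2 (log2 fold change 0.20 without WT replicate 3, in a range of -0.45 to 0.20 over the libraries left out), Gpr19 (0.13 with quantile normalisation) and P2ry6 (0.17 with quantile normalisation and 0.10 without WT replicate 3, in a range of -0.23 to 0.10), none of which passed with all libraries. With the stricter filter the risen counts were 3 adhesion receptors, 1 nucleotide and adenosine receptor, 2 RGS proteins and 0 RAMPs, since fewer genes were tested. Without a filter the fallen counts were 1 peptide receptor (Calcrl), 5 RGS proteins and 1 RAMP, since more genes were tested. Leaving out 1 library gave 1 to 2 fallen nucleotide and adenosine receptors, 1 to 2 fallen prostanoid receptors, 3 to 4 risen G protein alpha subunits and 1 to 2 risen beta and gamma subunits. The cause was not tested. Replicate numbers did not pair the libraries: deviations of same-numbered KO and WT libraries correlated at 0.101, 0.0811 and -0.0951. With the replicate number as a block 27 receptor genes rose, 24 fell and 33 changed at least 2-fold, over all genes 8395 passed, and 2 prostanoid receptors fell, as Ptger4 passed (adjusted p = 0.0272). Folds of genes with a few reads in 1 line, such as Gpr173, Adra1d, P2ry1 and Htr1d, are limited by depth.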

Other observations

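The receptors for Wnt proteins and R-spondins, read from the comparison list of other membrane receptors and chosen here after their values were seen, also split between the lines. Of 8 Frizzled genes 5 fell, 1 rose and 2 did not pass with limma, beside 33.8% fallen and 34.3% risen over all genes tested, and nothing particular to these genes was tested. Fzd7 was at 52.6 ± 9.14 CPM in KO and 147 ± 2.28 CPM in WT, Fzd1 at 38.4 ± 4.36 and 83.7 ± 3.64 CPM, and Fzd4 at 5.96 ± 1.34 and 16.5 ± 3.19 CPM (SD, n = 3). Fzd2 rose to 38 ± 5.30 from 22.5 ± 2.06 CPM, and Fzd6, at 219 ± 41.6 CPM in KO and 221 ± 55.4 CPM in WT (SD, n = 3), did not pass (adjusted p = 0.97). Within related pairs the genes went opposite ways: the planar polarity cadherin Celsr2 fell to 60.1 ± 12.3 from 150 ± 15.9 CPM while Celsr1 rose, and the R-spondin receptor Lgr4 fell to 54.0 ± 9.36 from 102 ± 24.0 CPM while Lgr6 rose (SD, n = 3). Smo, which carries the Hedgehog signal, fell to 103 ± 4.85 from 168 ± 11.6 CPM (SD, n = 3), whereas Gpr161, which restrains that pathway, rose.

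Some receptors for lipid mediators outside the symbols used, again chosen after their values were seen, were low in both lines. Both leukotriene B4 receptors were lower in KO, Ltb4r1 at 0.125 ± 0.0400 against 1.66 ± 0.852 CPM and Ltb4r2 at 0.334 ± 0.157 against 3.85 ± 1.43 CPM (SD, n = 3). The bile acid receptor Gpbar1 was also lower, at 0.0613 ± 0.0110 against 3.28 ± 1.02 CPM (SD, n = 3). Another leukotriene receptor, Cysltr1, did not pass with limma, at 7.69 ± 0.297 CPM in KO and 8.24 ± 2.63 CPM in WT (SD, n = 3; adjusted p = 0.83). The membrane-bound chemokine Cxcl16 was higher in KO, at 306 ± 20.9 against 24.4 ± 2.84 CPM (SD, n = 3; log2 fold change 3.65). Its receptor Cxcr6 was not among the listed genes.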
